A study of Mus musculus with 6 samples.

Results

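The adenylate kinases Ak1, Ak3, Ak4, Ak5 and Ak6 and the adenosine kinase Adk were examined in the translatome of cells that express the dopamine D2 receptor (D2 neurons) in mouse medial prefrontal cortex (mPFC). The 6 genes were taken by name from 47729 annotated genes, and they hold 24 of the 115220 listed transcripts. They were selected on measured values of the same 6 libraries, including their difference between the groups, so that difference is given for them as a description, without a test. Messenger RNA was measured by RNAseq of RNA bound to tagged ribosomes. The tag is a hemagglutinin-labelled Rpl22, a ribosomal protein, that is immunoprecipitated with the RNA its ribosomes carry (RiboTag).

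All 6 libraries came from the mPFC of adult male D2Cre/LSL-Flag-Cas9/RiboTag mice on a C57BL/6 background, 3 weeks after a virus was injected there. In both groups the Cre recombinase, driven by a D2 receptor transgene, switched on Flag-Cas9 and the tagged Rpl22, so the controls carried Cas9 as well. The 3 Ctrl libraries were from mice given AAV GFP, and the 3 Gsk3sKO libraries were from mice given AAV Gsk3sgRNA/GFP, which adds a guide RNA against Gsk3b and so gives a somatic knockout in the infected D2 cells alone. The comparison of the groups asks how loss of GSK3β changes the ribosome-associated RNA of these cells. Only the Gsk3sKO group had a guide RNA and cutting by Cas9, and their effects cannot be told apart from loss of GSK3β here. The sources used here do not say whether libraries were separate mice or pools, so the spread and the p-values below concern these libraries and may be technical.

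Adenylate kinases move a phosphate from ATP (GTP for AK3) to AMP and so keep the adenine nucleotides in balance, each in its own compartment of the cell. AK1 and AK5 act mainly in the cytosol, AK3 and AK4 in the mitochondrial matrix, and AK6 in the nucleus. Adenosine kinase turns adenosine into AMP, and in the brain it is the main route by which adenosine, an inhibitory signal, is removed. In the adult brain it is best known from astrocytes.

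Values are FPKM, fragment numbers relative to library size and to the length of the transcript, and so a level per length, and the gene total is the sum over the transcripts of a gene. Fragments could be estimated only roughly from the smallest values, at 23.5 to 45.2 M per library, and 40787 to 55841 transcripts were above 0. The target Gsk3b had a total of 35.6, 53.8 and 56.5 FPKM in Ctrl 1, 2 and 3, against 36.9, 37.0 and 33.6 FPKM in Gsk3sKO 1, 2 and 3. Its Gsk3sKO values sat together at the low end, with Ctrl 1 among them, and the log2 difference of -0.40 (SE 0.19) had an unadjusted p of 0.0648 and an adjusted p of 0.773 in limma's fit across all gene totals. Drd2, which defines the labelled cells, ranged from 1.58 FPKM in Ctrl 1 to 14.1 FPKM in Ctrl 3, and Rpl22 was 36.6 to 47.7 FPKM in 5 libraries and 89.6 FPKM in Gsk3sKO 2. Markers of excitatory and inhibitory neurons were present in the precipitates, with Ctrl mean sums of 1642 and 1105 FPKM. Markers of astrocytes, oligodendrocytes, microglia and vessels were present too, at 211, 169, 45.7 and 43.6 FPKM. The lists hold different genes, so these sums are not shares of cells. No listed marker was at 0 in every library.

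Of the 6 gene totals, Ak5 was the most abundant and Ak4 the least, and Adk alone had values that did not overlap between Ctrl and Gsk3sKO. The largest differences lay within a gene. An Ak6 transcript annotated with the reading frame of TAF9 was lower in Gsk3sKO. A near-identical Ak6 transcript, annotated with a truncated AK6 frame, was higher. Both hold the whole TAF9 frame in their exons, and their sum differed little. Ak1 also moved between transcripts with a long and a short amino-terminal end, but between libraries of the same group. By limma, 844 of 12874 gene totals (6.56%) had an unadjusted p under 0.05, 669 of them (5.20%) lower in Gsk3sKO, and 6 (0.0466%) had an adjusted p under 0.05. The last count moved between 0 and 20 with the settings tried. Of the 6 kinases, 1 had groups without overlap, against 12% of all gene totals tested. All 6 passed the minimum mean of 1 FPKM. The median log2 difference was 0.07 over the 6 kinases and -0.06 over all gene totals tested, and since the kinases were chosen on this contrast nothing is read from these counts.

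**Figure D1:**
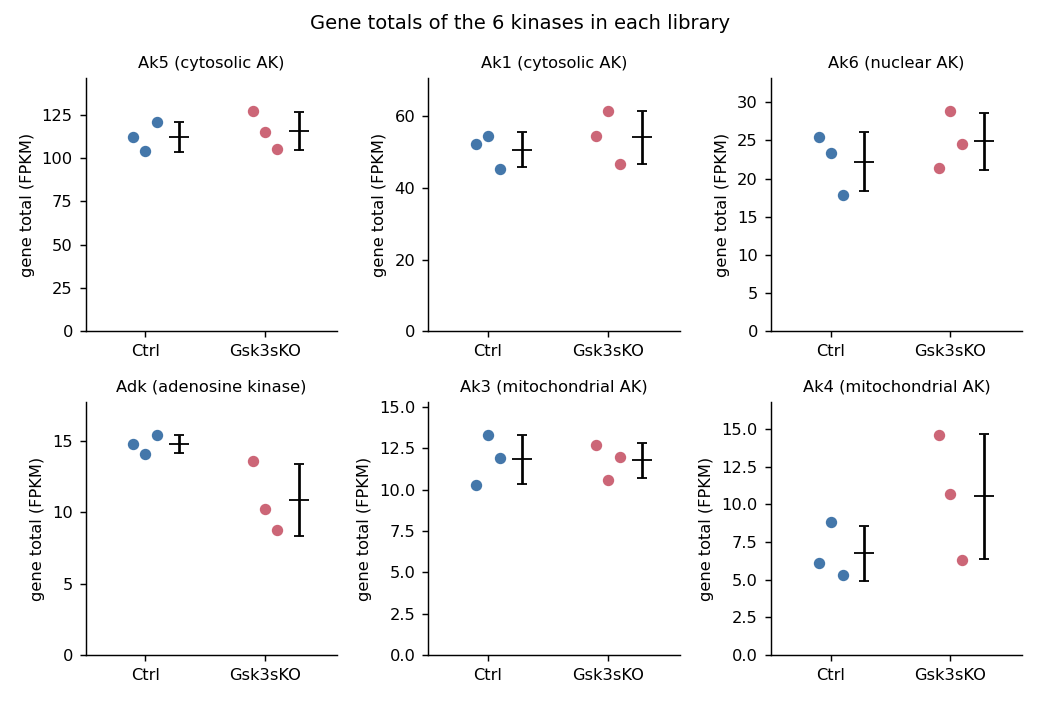
Gene totals of the 6 kinases in FPKM (vertical axes, each from 0) in Ctrl (blue) and Gsk3sKO (red), 1 point per library in the order of replicates 1, 2 and 3, with the mean and SD of 3 libraries as black bars. The points of the groups overlap for every kinase but Adk, whose Ctrl points lie at 14.1 to 15.4 and Gsk3sKO points at 8.73 to 13.6.

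In level, over both groups, the order of the gene totals was Ak5 (mean 114 FPKM), Ak1 (52.4), Ak6 (23.6), Adk (12.8), Ak3 (11.8) and Ak4 (8.64). Ak5 lay above 96.2% of all tested gene totals and Ak4 above 50.1%. Each of the first 3 steps in this order was seen in all 6 libraries, with mean log2 ratios of 1.11 ± 0.19 for Ak5 over Ak1, 1.13 ± 0.16 for Ak1 over Ak6 and 0.84 ± 0.47 for Ak6 over Adk (SD, n = 6). Adk and Ak3 did not differ beyond their spread, since Adk was higher in 4 of 6 libraries (mean log2 ratio 0.09 ± 0.32), and Ak3 was above Ak4 in 4 of 6 libraries as well (0.48 ± 0.48). The order was read from the means of these same libraries and is a description. The place of Ak6 in it rests on transcripts that do not code for the whole enzyme. Its 1 transcript with the full AK6 frame, ENSMUST00000022135, averaged 7.98 FPKM, below the gene totals of Adk, Ak3 and Ak4. The Ak4 total also includes transcripts without the full frame. By full-length frame alone, Ak6 averaged 7.06 FPKM in Ctrl and 8.89 FPKM in Gsk3sKO, against 4.44 and 8.47 FPKM for Ak4, with the order changing between libraries.

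Ak5, a cytosolic form found mainly in brain (GRCm38 chr3:152462815-152668360, minus strand), was the steadiest of the 6. Its gene total was 112, 104 and 121 FPKM in Ctrl 1, 2 and 3 and 127, 115 and 105 FPKM in Gsk3sKO 1, 2 and 3. The values of the groups were interleaved, with means of 112 ± 8.67 and 116 ± 10.8 (SD, n = 3) and a log2 difference, Gsk3sKO minus Ctrl, of 0.04 (limma SE 0.13). A single transcript of 562 codons, ENSMUST00000045262, made up 96.5 to 99.7% of the total in every library. The other transcripts were minor: the retained-intron transcript ENSMUST00000198552 ranged from 0.0101 to 2.29 FPKM, and a shorter coding transcript from 0.0647 to 1.33 FPKM.

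Ak1, the widely expressed cytosolic form (chr2:32621758-32635058, plus strand), had a gene total of 52.3, 54.6 and 45.3 FPKM in the Ctrl libraries and 54.6, 61.4 and 46.6 FPKM in the Gsk3sKO libraries. The groups overlapped, with means of 50.7 ± 4.86 and 54.2 ± 7.42 and a log2 difference of 0.09 (SE 0.15). Under this total, 6 transcripts were listed, and all 6 passed the minimum. The 3 with a full-length frame fall into a short and a long form by where the protein begins. ENSMUST00000113277 and ENSMUST00000113278 code for the same 194 codons from different first exons, and ENSMUST00000068271 codes for 210 codons because it starts in an exon of its own. The starts of both coding sequences are shown because the division between them is what varied, with the bases particular to each in capitals and the shared bases that follow in lower case (GENCODE M21 transcripts, GRCm38, plus strand):
Ak1 ENSMUST00000068271: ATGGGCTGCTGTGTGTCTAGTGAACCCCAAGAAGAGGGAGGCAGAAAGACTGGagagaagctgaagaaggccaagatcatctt
Ak1 ENSMUST00000113277: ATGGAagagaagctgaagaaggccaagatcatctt

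The short-frame transcript ENSMUST00000113277 measured 32.6, 13.9 and 37.0 FPKM in Ctrl 1, 2 and 3 and 47.7, 40.0 and 17.8 FPKM in Gsk3sKO 1, 2 and 3. The long-frame transcript ENSMUST00000068271 ran the other way, at 3.52, 25.6 and 2.85 FPKM in Ctrl and 1.34, 5.72 and 19.7 FPKM in Gsk3sKO. It thus made up 46.8% of the Ak1 total in Ctrl 2 and 42.3% in Gsk3sKO 3, and 2.46 to 9.32% in the other 4 libraries. These 2 libraries belong to different groups, and accordingly neither transcript separated the groups (log2 differences of 0.33, SE 0.49, for the short frame and -0.17, SE 1.03, for the long). The transcripts share 1921 of the 2063 bases of ENSMUST00000113277, and fragments from the shared bases do not distinguish them. Summed over the 3 transcripts with a full-length frame, Ak1 was 36.8, 39.9 and 41.1 FPKM in Ctrl and 49.4, 47.1 and 45.4 FPKM in Gsk3sKO. This sum did not overlap between groups (39.3 ± 2.23 against 47.3 ± 2.0, log2 difference 0.26), but the grouping was chosen after its values were seen and was not tested.

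The other 3 Ak1 transcripts and ENSMUST00000113278 were lower and uneven. ENSMUST00000113278 was between 0.423 and 1.42 FPKM in 5 libraries and 8.0 FPKM in Gsk3sKO 3 (log2 difference 0.83, SE 0.73). The retained-intron transcript ENSMUST00000135392 ranged from 0.670 to 10.1 FPKM with no order by group (log2 difference -0.09). Of the partial coding transcripts, ENSMUST00000156578 overlapped between groups (log2 difference -0.83, SE 0.59). ENSMUST00000195721 did not, at 1.86, 6.55 and 2.26 FPKM in Ctrl against 0.873, 1.84 and 0 FPKM in Gsk3sKO (log2 difference -1.24, SE 0.59), although Ctrl 1 and Gsk3sKO 2 were separated by very little.

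Ak3, the matrix enzyme that uses GTP (chr19:29020833-29047961, minus strand), was nearly level between groups. Its total was 10.3, 13.3 and 11.9 FPKM in Ctrl and 12.7, 10.6 and 12 FPKM in Gsk3sKO. The Gsk3sKO range lay inside the Ctrl range, with means of 11.8 ± 1.54 and 11.8 ± 1.07 and a Gsk3sKO to Ctrl ratio of 0.996. The transcript with the full 227 codons, ENSMUST00000025696, accounted for 91.7 to 100% of it (log2 difference 0.04, SE 0.19), and the partial transcript ENSMUST00000125587 stayed between 0.00143 and 0.990 FPKM.

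Ak4, the other mitochondrial matrix form (chr4:101419277-101466995, plus strand), was the least abundant and the most variable. Ctrl 1, 2 and 3 gave 6.12, 8.82 and 5.33 FPKM, and Gsk3sKO 1, 2 and 3 gave 14.6, 10.7 and 6.28 FPKM. The 2 highest values were both Gsk3sKO, but Gsk3sKO 3 lay between Ctrl values, so the groups overlapped (means 6.76 ± 1.83 and 10.5 ± 4.15, ratio 1.56, log2 difference 0.53, SE 0.31). Without Gsk3sKO 1 that difference was 0.28, and without Gsk3sKO 3 it was 0.82. Of its 7 transcripts, 2 passed the minimum of 1 FPKM. ENSMUST00000102780 was 1.96, 1.32 and 0.373 FPKM in Ctrl and 8.92, 10.6 and 0 FPKM in Gsk3sKO, high in Gsk3sKO 1 and 2 and listed at 0 in Gsk3sKO 3 (log2 difference 1.20, SE 0.99). ENSMUST00000106946 had no such order, at 0.423, 3.26 and 2.02 FPKM against 1.74, 0.0591 and 2.91 FPKM (log2 difference -0.23, SE 0.68). With ENSMUST00000106945 they share 1 frame of 223 codons, whose sum of 2.52, 8.42 and 2.39 FPKM in Ctrl and 10.7, 10.6 and 4.12 FPKM in Gsk3sKO overlapped as the total did. Among the transcripts under the minimum, ENSMUST00000133055 was above 0 in Ctrl alone, at 2.82, 0.168 and 1.67 FPKM. The related pseudogene Ak3l2-ps was listed at 1.35 to 4.08 FPKM, and reads shared between it and the kinases were not tested.

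AK6 is encoded on chr13:100650979-100666359 (plus strand) in a locus that also holds Taf9, a gene for a subunit shared by the TFIID and SAGA transcription complexes. Taf9 (chr13:100651579-100656060) lies wholly within Ak6 on the same strand. Several kinds of coding transcript carry the name Ak6. ENSMUST00000022135 has the whole AK6 frame of 172 codons over 5 exons. ENSMUST00000190729 begins at the same AK6 start codon but runs from the second exon into the exon that holds the TAF9 frame and meets a stop, leaving 41 codons. ENSMUST00000084721 has nearly the same exons but is annotated with a frame of 264 codons, that of TAF9 and not of an adenylate kinase. Its coding sequence is identical to that of the Taf9 transcript ENSMUST00000167256. The exons of ENSMUST00000190729 hold this TAF9 frame whole, and those of ENSMUST00000084721 hold the AK6 start codon. Each RNA thus carries both frames, and the names used below follow the annotated one.

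The sequences show these relations. First come coding bases 1 to 126 of the AK6 frame in the full-length and the truncated transcript, which are identical for 121 bases (lower case) and then part (capitals, ending in the stop codon TGA in the truncated one). Then come the first 60 coding bases of the TAF9 frame in the Ak6 and the Taf9 transcript, start codon in capitals (GENCODE M21 transcripts, GRCm38, plus strand):
Ak6 ENSMUST00000022135: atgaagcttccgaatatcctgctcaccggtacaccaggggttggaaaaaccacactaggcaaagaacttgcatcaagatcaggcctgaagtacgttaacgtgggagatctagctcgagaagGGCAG
Ak6 ENSMUST00000190729: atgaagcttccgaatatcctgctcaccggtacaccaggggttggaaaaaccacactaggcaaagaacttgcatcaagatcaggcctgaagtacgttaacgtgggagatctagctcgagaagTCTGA
Ak6 ENSMUST00000084721: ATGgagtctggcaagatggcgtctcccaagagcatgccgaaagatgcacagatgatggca
Taf9 ENSMUST00000167256: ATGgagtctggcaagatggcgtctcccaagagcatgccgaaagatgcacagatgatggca

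**Figure D2:**
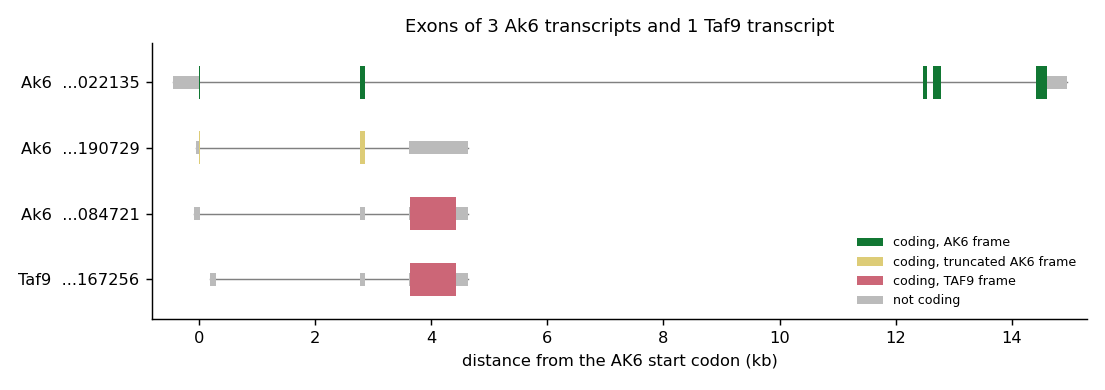
Exons (boxes) and introns (lines) of 3 Ak6 transcripts and 1 Taf9 transcript, labelled with the end of their identifiers, drawn to scale against distance from the AK6 start codon in kilobases. Tall boxes are coding and coloured by reading frame, low grey boxes are not coding. ENSMUST00000084721 and ENSMUST00000190729 have nearly the same 3 exons, apart from 38 bases at their ends, and differ in the annotated frame, and the remaining AK6 exons lie far downstream of the Taf9 exon.

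The Ak6 gene total was 25.4, 23.4 and 17.9 FPKM in Ctrl and 21.4, 28.8 and 24.5 FPKM in Gsk3sKO. Only Ctrl 3 and Gsk3sKO 2 lay outside the range of the other group, and the means were 22.2 ± 3.85 and 24.9 ± 3.72 (log2 difference 0.16, SE 0.18). The full-length AK6 transcript ENSMUST00000022135 overlapped likewise, at 10.5, 5.97 and 4.72 FPKM in Ctrl and 7.49, 7.51 and 11.7 FPKM in Gsk3sKO (log2 difference 0.33, SE 0.34). The retained-intron transcripts ENSMUST00000185901 and ENSMUST00000190210 stayed at or under 0.453 FPKM.

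The pair that spans Ak6 and Taf9 did not follow the total. The transcript annotated for TAF9, ENSMUST00000084721, was 13.7, 14.5 and 12.6 FPKM in Ctrl 1, 2 and 3 and 9.94, 0.316 and 1.44 FPKM in Gsk3sKO 1, 2 and 3. It was close to uniform in Ctrl, somewhat lower in Gsk3sKO 1 and nearly absent from Gsk3sKO 2 and 3 (13.6 ± 0.953 against 3.90 ± 5.26, log2 difference -2.16, SE 0.75). Without Gsk3sKO 2 that difference was -1.50, and without Gsk3sKO 1 it was -3.03. The truncated transcript ENSMUST00000190729 was 0.479, 2.88 and 0.578 FPKM in Ctrl and 3.93, 20.9 and 11.3 FPKM in Gsk3sKO. Again Gsk3sKO 1 stood just past the Ctrl values and Gsk3sKO 2 and 3 far from them (1.31 ± 1.36 against 12.1 ± 8.52, ratio 9.20, log2 difference 2.40, SE 0.66). As a share of the sum of the pair, the truncated transcript made up 3.38, 16.6 and 4.39% in Ctrl and 28.4, 98.5 and 88.8% in Gsk3sKO.

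The sum of the pair hardly differed, at 14.2, 17.4 and 13.2 FPKM in Ctrl and 13.9, 21.2 and 12.8 FPKM in Gsk3sKO (14.9 ± 2.19 against 16.0 ± 4.60, log2 difference 0.07). All 1184 bases of ENSMUST00000190729 lie within the 1222 bases of ENSMUST00000084721, and the 38 bases that differ sit at the ends, 37 at the 5′ end and 1 at the 3′ end. Reads that lie in those 38 bases are therefore the only ones that can tell the transcripts apart by sequence, out of a roughly estimated 11.1 to 758 fragments per library assigned to ENSMUST00000084721 and 16.1 to 713 to ENSMUST00000190729. The 37 bases also lie in the first exon of the full-length ENSMUST00000022135, and the 1 base also lies in Taf9 ENSMUST00000167256. Gsk3sKO 2, with the largest share of the truncated transcript, also had the highest Rpl22 (89.6 FPKM), whereas Gsk3sKO 3 had 47.7 FPKM, as did Ctrl 3. Whether the division reflects the RNA or the assignment of shared fragments was not tested.

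Neighbouring transcripts of the locus were then set beside the pair. The Taf9 gene total was 16.6, 7.46 and 10.6 FPKM in Ctrl and 9.30, 7.84 and 9.66 FPKM in Gsk3sKO, with overlap (log2 difference -0.28, SE 0.27, limma adjusted p = 0.879). Summed over the 6 transcripts whose annotated frame begins at the TAF9 start codon, ENSMUST00000084721 included, values were 30.3, 22.0 and 23.2 FPKM in Ctrl and 19.2, 8.16 and 11.1 FPKM in Gsk3sKO, without overlap (log2 difference -0.99). With ENSMUST00000190729 added, whose exons hold the TAF9 frame as well, the sum was 30.8, 24.8 and 23.8 FPKM against 23.2, 29.1 and 22.4 FPKM, with overlap (log2 difference -0.09). All 10 Ak6 and Taf9 transcripts together came to 33.8 ± 7.17 FPKM in Ctrl and 33.8 ± 2.99 FPKM in Gsk3sKO (log2 difference 0.02). Groups were thus apart for the sum of transcripts annotated for TAF9 without ENSMUST00000190729 and overlapping with it. These sums were chosen after their values were seen.

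**Figure D3:**
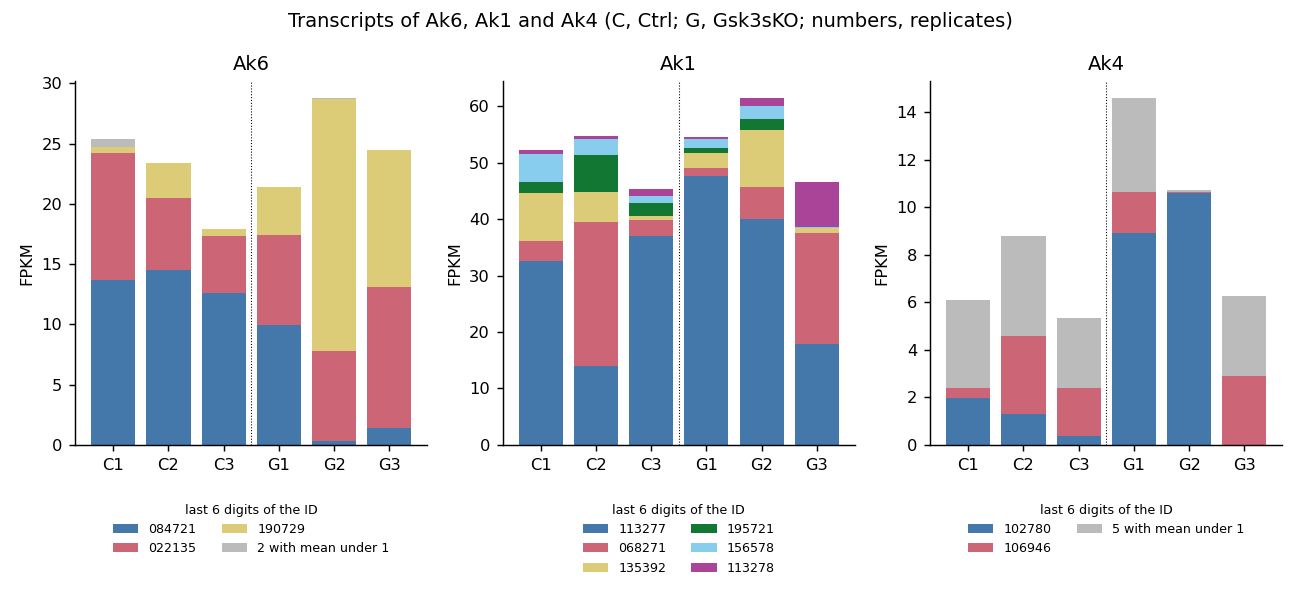
Stacked bars of transcript levels in FPKM for Ak6, Ak1 and Ak4 in each library (C, Ctrl; G, Gsk3sKO; vertical axes from 0), coloured by transcript, with transcripts of mean under 1 FPKM in grey. In Ak6 the blue segment (ENSMUST00000084721) of 9.94 to 14.5 FPKM in the first 4 bars gives way to the yellow one (ENSMUST00000190729) in the last 2; in Ak1 the red long-frame segment is large in C2 and G3.

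Counted over the 6 genes, 15 of the 24 transcripts passed the minimum mean of 1 FPKM and 9 did not. Groups did not overlap for 4 of the 15 (the Ak6 pair, Ak1 ENSMUST00000195721 and the Adk transcript), against 11.2% of all transcripts tested, and for 2 of the 9 under the minimum (Ak4 ENSMUST00000133055 and Ak6 ENSMUST00000185901). As the genes were chosen on this contrast, these counts are a description. Of all 21584 transcripts tested, 1200 (5.56%) had an unadjusted p under 0.05 by limma, and 0 had an adjusted p under 0.05. That 0 became 4 in an ordinary linear model, 12 without Gsk3sKO 1, and 2 without Ctrl 3 or without Gsk3sKO 2.

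Adk, which clears adenosine (chr14:21052574-21448569, plus strand), was the only kinase whose gene total kept the groups apart. It measured 14.8, 14.1 and 15.4 FPKM in Ctrl 1, 2 and 3 and 13.6, 10.2 and 8.73 FPKM in Gsk3sKO 1, 2 and 3. The Ctrl values were tight and every Gsk3sKO value was below them, though Gsk3sKO 1 by little (14.8 ± 0.648 against 10.8 ± 2.49, ratio 0.733, log2 difference -0.44, SE 0.19). Without Gsk3sKO 1 the log2 difference was -0.60, and without Gsk3sKO 3 it was -0.30. Because Adk is best known from astrocytes, the 10 astrocyte markers were summed beside it, giving 218, 232 and 185 FPKM in Ctrl and 192, 218 and 240 FPKM in Gsk3sKO. These sums overlapped, and none of the 10 markers passed limma's unadjusted threshold. Slc1a2, at a mean of 103 FPKM, weighed most in the sum. Single markers went both ways. Gfap (log2 difference -0.56, SE 0.29) and Gjb6 (-0.53, SE 0.28) were lower, and Gja1 (0.21, SE 0.25) and Sox9 (0.16, SE 0.20) higher. The median of the 10 was -0.00. The microglial sum was lower in all Gsk3sKO libraries, at 31.3 to 40.5 FPKM against 41.4 to 53.9 FPKM in Ctrl, with C1qa and C1qb of its 9 markers past the unadjusted threshold. Of 8 oligodendrocyte markers, 4 were lower by the same threshold, with sums of 126 to 190 FPKM in Ctrl and 134 to 171 FPKM in Gsk3sKO that overlapped. The part of astrocytes, microglia or oligodendrocytes in the Adk values was not tested. In such precipitates fewer cells of a type, less RNA per cell and less untagged RNA carried along cannot be told apart.

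Adenosine kinase is made in a long nuclear and a short cytosolic form, and the table listed the long one alone, ENSMUST00000045376 of 361 codons. The short form of GENCODE M21, ENSMUST00000224069 of 345 codons, shares 1648 bases with it and has a different first exon, so the values above cannot divide the forms. Their coding starts are given to show how little separates them, with the bases of each form in capitals and the common ones in lower case (GENCODE M21 transcripts, GRCm38, plus strand):
Adk ENSMUST00000045376: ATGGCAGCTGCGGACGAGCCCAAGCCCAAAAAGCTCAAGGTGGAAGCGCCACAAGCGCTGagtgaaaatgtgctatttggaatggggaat
Adk ENSMUST00000224069: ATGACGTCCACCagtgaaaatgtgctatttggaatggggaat

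The wider pathway was followed in 64 other genes of adenine nucleotide and adenosine metabolism, in 7 lists. Of these, 49 passed the minimum, and 1 (2.04%) had an unadjusted p under 0.05 in limma's fit, lower in Gsk3sKO, beside the 6.56% over all gene totals. No gene of the lists passed after adjustment. Their median log2 difference was -0.06, close to that of all gene totals, and 6 of the 49 had groups without overlap, beside 12% over the table.

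The gene past the unadjusted threshold was Nme6, a nucleoside diphosphate kinase. Its total was 5.44, 2.35 and 1.55 FPKM in Ctrl and 1.43, 0.885 and 0 FPKM in Gsk3sKO, without overlap but with the lowest Ctrl and highest Gsk3sKO values close together (log2 difference -1.20, SE 0.47, limma unadjusted p = 0.0323, adjusted p = 0.741). It no longer passed without Ctrl 1 (log2 difference -0.82), Ctrl 2 (-1.29) or Gsk3sKO 3 (-0.83). None of the other 7 tested genes of its list passed, among them the abundant Nme1 (log2 difference -0.43, SE 0.23) and the guanylate kinase Guk1 (-0.24, SE 0.20). Among other adenylate kinases, Ak8 was 0.419 to 1.5 FPKM, and Ak7 and Ak9 did not exceed 0.293 FPKM.

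Creatine kinases, the other phosphate shuttle of neurons, stood above the adenylate kinases in level per length. Ckb, the brain cytosolic form, averaged 394 FPKM with overlap (log2 difference -0.15, SE 0.18). The mitochondrial Ckmt1 was 141, 133 and 138 FPKM in Ctrl and 153, 143 and 145 FPKM in Gsk3sKO. That was a small step without overlap which did not pass (log2 difference 0.10, SE 0.12, limma adjusted p = 0.907), and Ckm and Ckmt2 were listed at 0.

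For adenosine itself, 0 of 13 tested genes of its formation, removal and transport passed. The most abundant were Ahcyl1, a relative of adenosylhomocysteinase, at a mean of 87.6 FPKM (log2 difference 0.20, SE 0.16), and the nucleotidase Nt5c at 38.8 FPKM. Nt5c was 40.2, 30.9 and 34.9 FPKM in Ctrl and 42.4, 42.7 and 41.6 FPKM in Gsk3sKO, each Gsk3sKO value just above the highest Ctrl value (log2 difference 0.26, SE 0.14, limma adjusted p = 0.792). Ada, the deaminase that is the alternative to Adk for removing adenosine, was listed at 0 in all libraries. Of the adenosine receptors, the abundant Adora1 averaged 13.9 FPKM and was level (log2 difference 0.07, SE 0.17), and Adora2a, a gene known from striatal D2 neurons, ranged from 0 in Ctrl 1 to 5.27 FPKM in Ctrl 3 (0.47, SE 0.59). Adora2a and Drd2 were thus both lowest in Ctrl 1 and highest in Ctrl 3.

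Enzymes that make, salvage or deaminate AMP and IMP were tested for 15 of 16 genes, none of which passed, and their median log2 difference was -0.15. The salvage enzyme Hprt (mean 92.7 FPKM) had a log2 difference of -0.15 (SE 0.15) and the adenylosuccinate synthase Adss (34.1 FPKM) one of 0.30 (SE 0.19), both with overlap. Subunits and upstream kinases of AMP-activated protein kinase, the sensor of AMP, gave 0 of 8 as well. The regulatory subunit Prkag2 averaged 44.1 FPKM (log2 difference 0.16, SE 0.19) and the upstream kinase Camkk2 36.4 FPKM (0.20, SE 0.17).

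**Figure D4:**
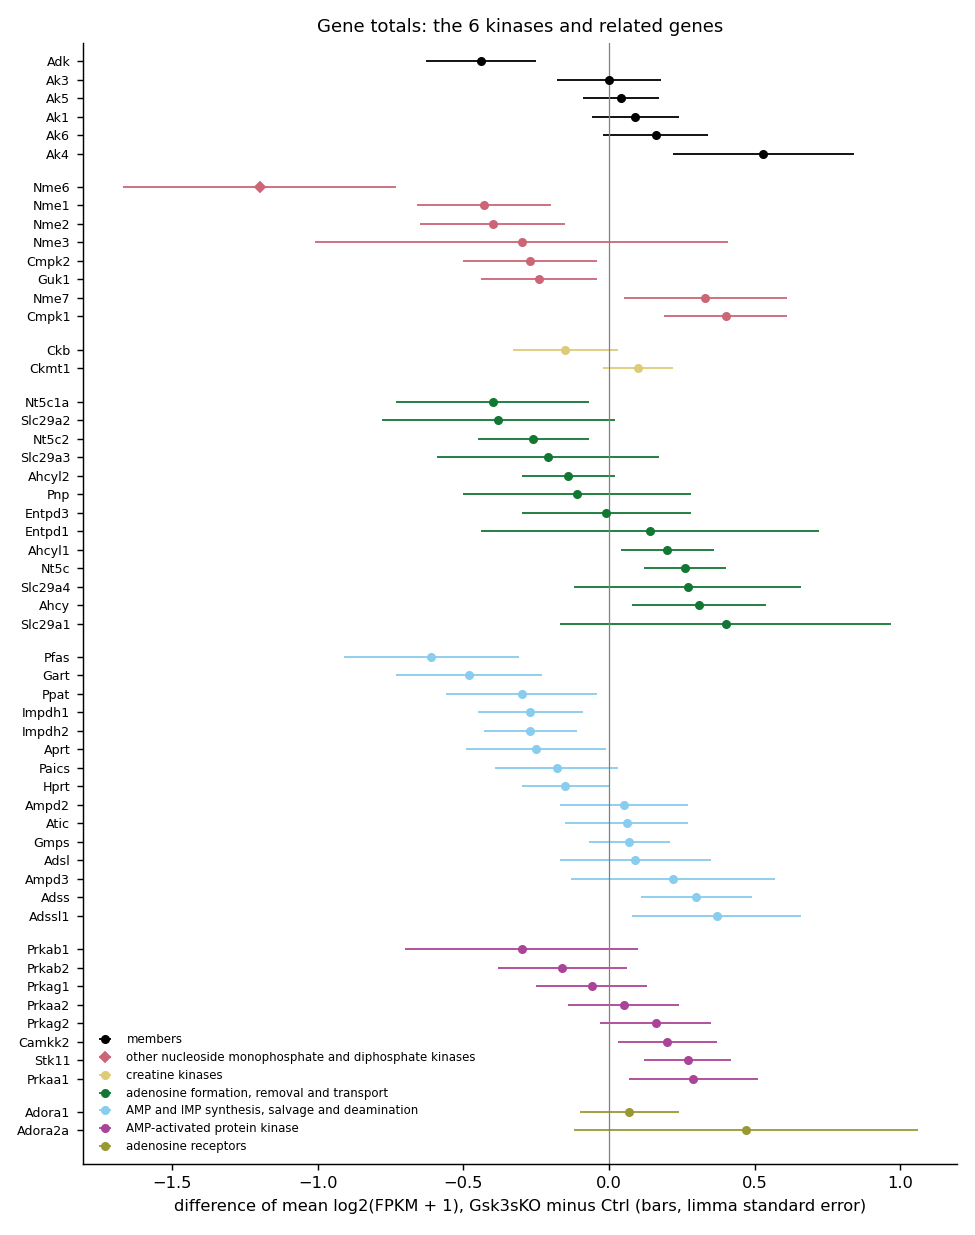
Log2 difference of gene totals, Gsk3sKO minus Ctrl on the log2(FPKM + 1) scale, with limma's standard error as bars (3 libraries per group), for the 6 kinases (black) and related genes that passed the minimum (1 not drawn), coloured by list. Differences lie on both sides of 0, and the bars of many genes, Adk and Ak4 among them, do not reach it. The diamond marks Nme6, the 1 related gene with an unadjusted p under 0.05, at -1.20.

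Profiles over the 6 libraries were compared by Pearson's r on the log2 scale, as a description, with libraries of both groups and unequal depth as the points. The nearest genes were Gm12251 (r = 0.9927) and Ubl4a (0.9866) for Ak1, Mrpl32 (0.9937) and Gusb (0.9925) for Ak3, and Epb41l1 (0.9728) and Ppp2r3a (0.9682) for Ak4. For Ak5 they were the kinase gene Cdkl4 (0.9912) and Syt7, a synaptotagmin (0.9855), and for Ak6 they were Krt80 (0.9805) and Gm12366 (0.9772). Adk was nearest to Rbm4b, a gene for an RNA-binding protein (0.9961), and to Cd74, the invariant chain of MHC class II (0.9936). Cd74 was 6.27, 3.96 and 8.03 FPKM in Ctrl and 4.54, 0.827 and 0 FPKM in Gsk3sKO, so that its groups overlapped where those of Adk did not. The 2 genes were picked from 12874 gene totals on 6 libraries.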

How the data were processed

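RNA bound to tagged ribosomes was sequenced in 6 libraries (TruSeq Stranded total RNA kit), 3 per group, with groups taken from the sample labels. Per the submitters' processing notes, HISAT2 2.1.0, SAMtools 1.9 and StringTie 1.3.4d were used with GRCm38. The authors deposited FPKM per transcript for each library. The deposited table also holds a fold (ratio), p-value and q-value column of the authors' own comparison, which was not used. The strand setting and annotation release were not given in the sources used here. No per-sample column was left out (0).

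Transcripts were summed by gene identifier and tested as log2(FPKM + 1), with a mean of at least 1 FPKM over the 6 libraries, in limma 3.58.1 (R 4.3.3; lmFit, eBayes with trend), with Benjamini-Hochberg adjustment over all features tested. A fold on this scale understates the change of low genes. SE is limma's, and the scripts were tested on simulated data. A called value has an unadjusted p under 0.05, and the 6 kinases and their transcripts are described without calls. Neighbouring levels were compared by mean log2 ratio within a library in Python 3.11.15, and the planned exact permutation test of them is not given, since the order was read from the same libraries. Of the transcripts, 114237 matched GENCODE M21 and 983 did not. That release gave positions, frames and sequences. Depth was estimated from whole-read steps of low values (transcripts over 800 bases), of which 12.3 to 20.5% fell within 0.01 read of a whole number, so it is approximate and no count test was run.

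The members, the 7 pathway lists and the 7 marker lists were chosen with earlier results of these data known. Named are the 6 kinases with their transcripts, other adenylate kinases, listed pathway genes past p under 0.05 and up to 2 further per list by mean level, Gsk3b, Taf9, and the 2 nearest profiles of each kinase. Other genes (Ckm, Ckmt2, Ada, Cd74 values, Ak3l2-ps, Slc1a2, Gfap, Gjb6, Gja1, Sox9, C1qa, C1qb, Drd2 and Rpl22) are named beside them. A result of the lists for 1 gene is not reported here. Alternatives were another pseudocount, filter, scaling, a linear model without moderation, a replicate block and leaving out each library.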

Additional observations from a re-analysis of the deposited data

How the results depend on the processing

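Over leaving out each library in turn the log2 difference ran from -0.60 to -0.30 for Adk, 0.28 to 0.82 for Ak4, 0.02 to 0.26 for Ak6, -0.00 to 0.19 for Ak1, -0.03 to 0.11 for Ak5 and -0.09 to 0.08 for Ak3. The Ak6 pair ran from -3.03 to -1.50 (ENSMUST00000084721) and from 1.90 to 2.98 (ENSMUST00000190729). Restricted to full-length coding transcripts, a choice made after seeing the data, the log2 difference moved from 0.09 to 0.26 for Ak1, from 0.53 to 0.88 for Ak4 and from 0.16 to 0.33 for Ak6.

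Over all transcripts, 1200 were called, 1917 without a filter and 590 at a mean of at least 5 FPKM, which test more and fewer transcripts. Of the pathway genes 1 was called, but 0 with a pseudocount of 0.1, 0 at a mean of at least 5 FPKM, and 0 to 3 on leaving out a library. The 0 came without Gsk3sKO 3 and the 3 without Ctrl 1, Ctrl 3 or Gsk3sKO 2, and Nme6 was not among those called without Ctrl 1 or Ctrl 2. Without a filter or in an ordinary linear model Stk11 (0.27) was called in its place. The cause was not tested. Of the gene totals called, 175 were higher and 669 lower in Gsk3sKO, against 306 and 503 after rescaling to the median ratio. The count of 6 gene totals with an adjusted p under 0.05 was 3 with a pseudocount of 0.1, 6 after rescaling, and 0 without a filter, at a mean of at least 5 FPKM, with a replicate block, in an ordinary linear model or without any single Gsk3sKO library. It was 3, 1 and 20 without Ctrl 1, 2 and 3.

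Deviations of same-numbered libraries correlated at -0.03, -0.01 and -0.08 over genes. These values showed no pairing by number, but they cannot tell whether same-numbered libraries were handled together. With a replicate block, 821 gene totals, 1103 transcripts and 1 pathway gene were called. Each of the 5 steps in the order of levels kept its direction under another pseudocount, rescaling and leaving out each library. Between libraries, depth is known only roughly, which limits what low transcripts can show.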
